A study of Macaca mulatta with 144 samples.

Results

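The measurements described here are those of miR-182 and miR-183-5p, mature microRNAs (miRNAs) cut from precursors of a shared gene cluster, in the serum of rhesus macaques (nonhuman primates, NHPs) before and after total body irradiation (TBI). They were taken as the rows of the raw count table that carry these names, listed as mml-miR-182 without an arm and as mml-miR-183-5p, so 2 of the 908 miRNAs listed and 2 of the 290 with a read in at least 40% of the libraries, which is the set that was tested. The 144 small RNA libraries came from 36 NHPs, each bled before irradiation and again 1, 2 and 6 days later. Each of 6 doses, between 6.0 and 8.5 Gy and spaced by 0.5 Gy, was given to 6 animals. There were 19 males and 17 females, of which 21 were recorded as deceased and 15 as survived. The baseline was the sample taken from the same animals before irradiation, with no unirradiated animals over the same days among the samples analysed here, so time since irradiation cannot be told apart from repeated blood sampling.

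In mammals miR-182, miR-96 and miR-183 are encoded as neighbours and are known as a group for their abundance in sensory cells of the retina and inner ear. They have related but different seeds, the bases near the 5′ end that pair with target mRNAs, and human miR-182 is known to target the DNA repair gene BRCA1. Serum miRNAs are released from blood cells and from many tissues, so an amount in serum does not name its source. In the RefSeq annotation of the rhesus genome (T2T-MMU8v2.0) MIR182, MIR96 and MIR183 lie on a single chromosome.

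The libraries differed widely in depth and composition. The total of miRNA counts lay between 11174 and 4118401 with a median of 280254, and 7 libraries fell under 0.1 times that median. The TMM factor, which scales each total so that most miRNAs have equal levels, lay between 0.0907 and 3.91, so the scaled values of a miRNA moved by much more than its share of the reads. A pair of libraries labelled as different animals and times, RA2265F before irradiation and RA2694M on day 1, held identical counts for every miRNA; the fits and the animal-level tests of the pair were repeated without them, and no call of the pair changed. The library of RA2816M taken before irradiation carries another animal's name in its description, and it was used under its title. Nothing in the labels states a sequencing batch. Levels are given below as TMM-scaled counts per 1000000 (CPM) or as log2(CPM + 1), called the level, a scale that understates changes of a sparse miRNA. Counts per 1000000 of the library total, with no TMM factor, are given as RPM. Whether fewer cells of a source or less RNA per cell lay behind a lower level cannot be told apart in serum.

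miR-182 was a regular but modest component of the serum and miR-183-5p was a sparse one. miR-182 had 5342 counts over all libraries, was read in 141 of 144 (97.9%), and ranked 115th of the listed miRNAs by its total. Its count per library was 0 at the lowest, 16.5 at the median and 979 at the highest, and 94 libraries held 10 counts or more. miR-183-5p had 264 counts, was read in 60 libraries (41.7%) and ranked 272nd. Its count was 0 at the median and 40 at the highest, and only 7 libraries held 10 counts or more. The other products of the cluster were at the edge of detection. miR-96 had 9 counts in 5 libraries and miR-183-3p, the other arm of the miR-183 hairpin, had 9 counts in 4 libraries, and both were below the filter for testing. The 3 libraries with no miR-182 count had totals of 14330, 44928 and 57162, for which a limit of 3 counts corresponds to 209, 66.8 and 52.5 RPM, so a level close to the usual one was not detectable there.

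**Figure D1:**
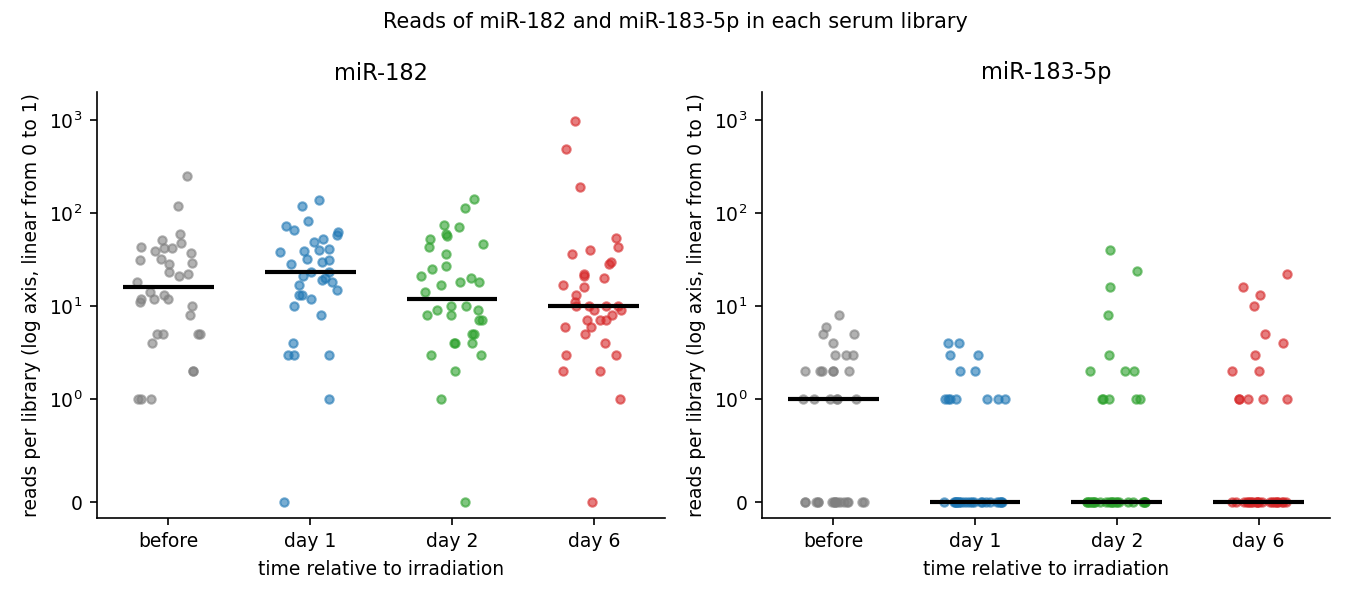
Reads per library of miR-182 (left) and miR-183-5p (right) at the 4 times of sampling, with 1 point per animal (n = 36 at each time) and a line at the median, on an axis that is logarithmic above 1 and linear from 0 to 1. The miR-182 medians lie between 10 and 23 reads, whereas the miR-183-5p median is 1 read before irradiation and 0 on each later day.

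Detection of miR-183-5p was nested in that of miR-182. With miR-182 read in 141 of 144 libraries, this was close to fixed in advance and says little about a link between the mates. Both were read in 60 libraries, miR-182 alone in 81, neither in 3, and no library held miR-183-5p without miR-182. No library held more miR-183-5p than miR-182. Of the pooled counts of the pair, miR-183-5p made up 4.71% (95% exact Clopper-Pearson interval 4.17 to 5.30%), or 1 count for 20.2 of miR-182. These intervals treat every read as independent, which reads amplified by PCR are not, and they leave out the spread between animals. In the 60 libraries with both, the share was 1.31% at the lowest, 7.75% at the median and 38.5% at the highest, and it exceeded 20% in 5. Depth moved with detection: miR-183-5p was read in 59.7% of the 72 libraries at or above the median total and in 23.6% of the 72 below it. The median total was 516836 in libraries with miR-183-5p and 200432 in those without it. A limit of 3 counts corresponded to 8.71 CPM in the median library, so most zeros for miR-183-5p did not show absence.

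The balance of the pair was uneven in a few libraries. On day 2 the animal RA0456F, at 7.0 Gy, had 40 counts of miR-183-5p and 74 of miR-182, and RA2021F, at the same dose, had 24 and 53. These are shares of 35.1% and 31.2%. In contrast, RA1782F on day 6, at 6.5 Gy, had 13 counts of miR-183-5p beside 979 of miR-182, the highest miR-182 count of the series and a share of 1.31%. Pooled by time, the share of miR-183-5p was 4.95% in the pre-irradiation libraries (3.75 to 6.39%), then 2.04% (1.32 to 2.99%), 9.68% (7.96 to 11.6%) and 3.71% (2.96 to 4.58%) at days 1, 2 and 6. The day 2 value rested on those 2 libraries: without RA0456F and RA2021F it was 4.40% (3.13 to 5.99%). The intervals of these pooled shares also leave out the spread between animals, so they do not test a difference between times. Only RA2576M, at 6.5 Gy, had miR-183-5p at all 4 times, with 1, 2, 1 and 3 counts. Another 9 animals had it at 3 times, 7 at 2, 15 at 1 and 4 at none.

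**Figure D2:**
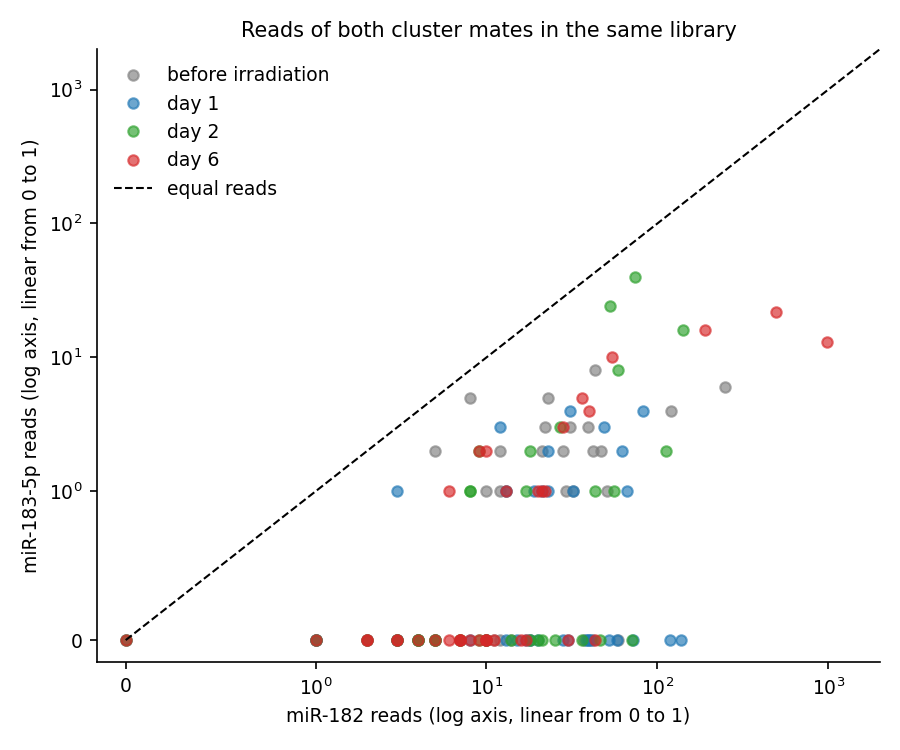
Reads of miR-183-5p (vertical) against reads of miR-182 (horizontal) in each of the 144 libraries, coloured by time, on axes that are logarithmic above 1 and linear from 0 to 1; the dashed line marks equal reads. Every library with miR-183-5p lies to the right of 0 on the miR-182 axis and below the line.

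The first comparison asked how each day after irradiation differed from the samples taken before it. miR-182 was higher on days 1 and 6, and not on day 2, by the test across all miRNAs. The lowest, median and highest miR-182 values were 2.10, 31.6 and 703 CPM in the pre-irradiation libraries. They were 0, 67.2 and 2500 CPM at day 1, 0, 36.6 and 425 CPM at day 2, and 0, 37.7 and 1845 CPM at day 6. The groups overlapped over almost their whole range, and the days with the higher means were those with a few very high libraries. On day 1 miR-182 was 2.84-fold higher than before irradiation (log2 fold change 1.51, SE 0.47, adjusted p = 0.0372, edgeR quasi-likelihood test with Benjamini-Hochberg adjustment). On day 6 it was 3.15-fold higher (1.66, SE 0.48, adjusted p = 0.0243, the same edgeR test). On day 2 the log2 fold change was 0.09 (SE 0.48, adjusted p = 0.935, edgeR). In the same test 6.55% of all miRNAs were called on day 1, 0.69% on day 2 and 6.55% on day 6. These shares moved with single animals too. The 19 calls on day 1 were 8 when RA2596M, RA2742F or RA2743F was left out, and the 19 on day 6 were 11 without RA1782F. miR-182 had the 6th largest increase of 290 on day 1 and the 5th largest on day 6.

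Both calls depended on single animals and on settings. On day 1 the call was lost when any of 16 of the 36 animals was left out, the largest shift coming from RA2705M, at 6.5 Gy. That animal's day 1 library had 72 counts of miR-182, a TMM factor of 0.104 and the highest scaled value, 2500 CPM, and without it the log2 fold change was 1.02 (adjusted p = 0.253, edgeR). The day 1 call was also lost without the low-total libraries (1.24, adjusted p = 0.113, edgeR) and with DESeq2 (1.25, adjusted p = 0.0508). On day 6 the call was lost without RA1782F (1.18, adjusted p = 0.151, edgeR). Blocking by animal, since the same 36 animals were sampled each time, left 1.07 on day 6 (adjusted p = 0.171, edgeR), and scaling by the library total left 0.67 (adjusted p = 0.242, edgeR). Pooled over the 36 libraries of each time, miR-182 stood at 50.1 RPM before irradiation, then at 77.7, 60.9 and 108 at days 1, 2 and 6. Without RA1782F the day 6 value was 64.5, and without RA1782F and RA0724F it was 48.0.

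With the animal as the unit, the changes were spread widely around a small mean. The miR-182 level changed by 0.95 ± 2.41 on day 1 (SD, n = 36), being higher in 21 animals and lower in 15 (sign-flip permutation test, p = 0.0226, adjusted p = 0.102 over 9 tests). On day 6 it changed by 0.68 ± 2.34, again higher in 21 and lower in 15 (sign-flip permutation test, p = 0.0905, adjusted p = 0.223). On day 2 it was higher in 18 and lower in 18. Ordered by mean, the miR-182 levels were 6.18 ± 2.13 on day 1, 5.91 ± 2.47 on day 6, 5.39 ± 1.83 on day 2 and 5.23 ± 1.61 before irradiation (SD, n = 36 each). No neighbours in this order passed (sign-flip permutation tests, smallest adjusted p = 0.812 over both miRNAs). The order came from these same means, which sets close times side by side, so these tests cannot show that the times were alike.

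miR-183-5p did not pass the test on any day. The lowest, median and highest values were 0, 0.694 and 231 CPM before irradiation, and both the lowest and the median were 0 CPM on each later day, with highest values of 51.9, 66.4 and 125 CPM on days 1, 2 and 6. Most animals had no read on each later day, and the groups overlapped throughout. The log2 fold changes over pre-irradiation were -0.61 on day 1 (SE 0.68, adjusted p = 0.757), 0.79 on day 2 (SE 0.58, adjusted p = 0.552) and 1.04 on day 6 (SE 0.60, adjusted p = 0.322) by edgeR. Without RA0456F the day 2 value was 0.018 (adjusted p = 0.982, edgeR), and with the animal as a block it was -0.19. The miRNA was read in 13 animals on day 1, 13 on day 2 and 14 on day 6, against 20 before irradiation. Against before irradiation, 7 animals had gained it and 14 had lost it on day 1, 4 and 11 on day 2, and 4 and 10 on day 6, and none of these passed an exact McNemar test (adjusted p = 0.378 for each day). Median totals were 286145, 295548 and 204734 on days 1, 2 and 6 and 363826 before irradiation, so depth moved in the same direction as detection; its part in the fall in detections was not tested.

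The day 1 changes of the pair pointed in opposite directions without a difference that passed correction. The miR-183-5p level minus the miR-182 level changed by -1.41 ± 3.00 on day 1 (SD, n = 36), being lower in 25 animals and higher in 11 (sign-flip permutation test, p = 0.00795, adjusted p = 0.0715). This test passed with a pseudocount of 10 (adjusted p = 0.0344) and without the low-total libraries (adjusted p = 0.0489), and not with the library total as size factor (adjusted p = 0.120). The difference was -0.44 ± 2.35 on day 2 and -0.77 ± 2.74 on day 6, and neither passed (sign-flip permutation tests, adjusted p = 0.410 and 0.223).

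**Figure D3:**
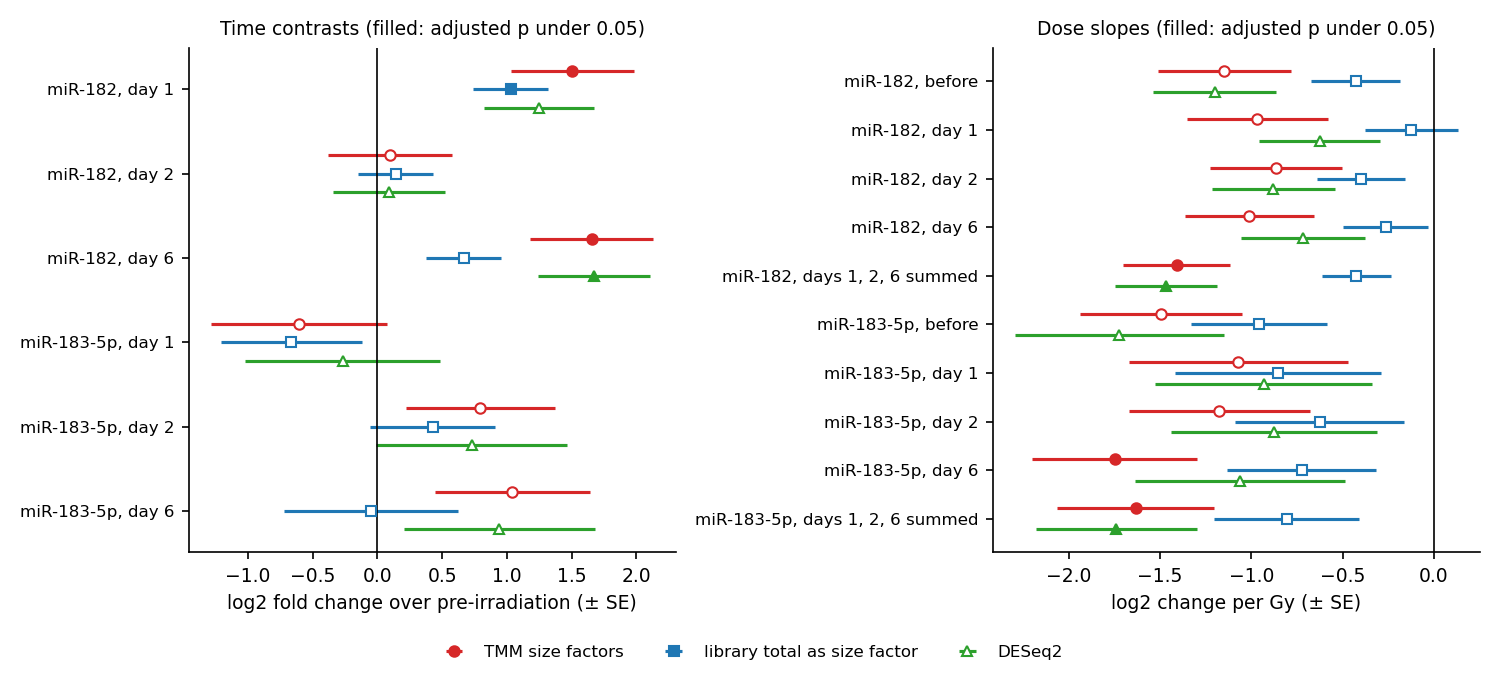
Log2 fold change of each day over pre-irradiation (left) and log2 change per Gy (right) of miR-182 and miR-183-5p, with bars of 1 SE, for edgeR with TMM factors (circles), edgeR with the library total as size factor (squares) and DESeq2 (triangles); filled symbols have an adjusted p under 0.05. The miR-182 estimate on day 1 is 1.51 with TMM factors and 1.03 with library totals, and all dose slopes lie below 0, those on library totals nearer to it.

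The next comparison asked how the level varied with the dose received. The slopes of both miRNAs with dose were negative at all 4 times, before irradiation included. On the log2 scale by edgeR, the change of miR-182 per Gy was -1.15 before irradiation (SE 0.36, adjusted p = 0.120), then -0.97 (SE 0.38, adjusted p = 0.172), -0.87 (SE 0.36, adjusted p = 0.343) and -1.01 (SE 0.35, adjusted p = 0.0561) at days 1, 2 and 6. For miR-183-5p it was -1.49 (SE 0.44, adjusted p = 0.120), -1.07 (SE 0.60, adjusted p = 0.305), -1.17 (SE 0.50, adjusted p = 0.343) and -1.75 (SE 0.45, adjusted p = 0.00768) at the same 4 times by edgeR. Only the last of these 8 slopes passed. Of all miRNAs, the edgeR test called 0.0% before irradiation, then 0.69%, 0.345% and 8.28% at days 1, 2 and 6, and the 24 calls behind the last share were 1 without RA0724F. The 0 calls before irradiation stood beside 21 miRNAs at an unadjusted p under 0.05 by edgeR, and DESeq2 made 0 calls with 19 such miRNAs. The day 6 slope of miR-183-5p did not pass without RA0724F (-1.44, adjusted p = 0.0934, edgeR), with DESeq2 (-1.06, adjusted p = 0.504) or on library totals (-0.72, adjusted p = 0.998, edgeR).

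Summing the 3 later libraries of each animal gave 1 value per animal and slopes that passed for both miRNAs. miR-182 fell by 1.41 per Gy on the log2 scale (SE 0.29, adjusted p = 0.000701) and miR-183-5p fell by 1.63 (SE 0.43, adjusted p = 0.00721) by edgeR, where 11.0% of all miRNAs were called. This share rested in part on RA0724F, without which 7 miRNAs were called in place of 32. miR-182 and miR-183-5p had the 5th and the 3rd most negative slopes of 290. Without RA0724F, at 6.0 Gy, the miR-183-5p slope was -1.37 (adjusted p = 0.0879, edgeR), while that of miR-182 passed with each animal left out in turn. Neither passed on library totals, with slopes of -0.42 (adjusted p = 0.294) and -0.81 (adjusted p = 0.310) by edgeR. The log2 TMM factor, which divides both levels, had slopes of 0.34 per Gy before irradiation (SE 0.20) and of 0.53 (SE 0.26), 0.10 (SE 0.23) and 0.20 (SE 0.23) at days 1, 2 and 6, and its part in the slopes of the pair was not tested. The mean slope after irradiation minus the slope before it was 0.20 for miR-182 (SE 0.41) and 0.16 for miR-183-5p (SE 0.57), both with adjusted p = 0.997 by edgeR. The edgeR test of this change called 0.0% of all miRNAs, with 8 at an unadjusted p under 0.05, and DESeq2 made 0 calls with 10 such miRNAs.

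The levels of single animals showed the same pattern. Before irradiation the mean miR-182 level over the 6 doses from low to high was 6.31, 5.22, 5.44, 5.85, 4.01 and 4.52, with SDs between 0.975 and 2.27 (n = 6 each). As the mean of days 1, 2 and 6 it was 6.67, 6.17, 5.41, 6.15, 5.84 and 4.71, with SDs between 0.574 and 1.90. The means did not fall in steps, and animals of every dose overlapped with those of every neighbouring dose. For miR-183-5p the mean level before irradiation was 3.69, 1.81, 0.73, 0.55, 0.39 and 1.09, and over the later days it was 1.75, 1.67, 1.26, 0.85, 0.75 and 0.35, over the same order of doses. The fall over the later days was thus in dose order, whereas before irradiation the 8.5 Gy group stood above the 3 groups at 7.0, 7.5 and 8.0 Gy. When doses were ranked by mean level, no neighbours differed in either miRNA or period (20 exact permutation tests, smallest p = 0.121, adjusted p = 0.922). The ranks came from the same means, which sets close groups side by side, so these tests cannot show that the doses were alike.

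A slope fitted over the 36 animals passed for both miRNAs in both periods. For miR-182 it was -0.70 per Gy before irradiation (SE 0.30, permutation p = 0.0238, adjusted p = 0.0356) and -0.58 over the later days (SE 0.24, permutation p = 0.0199, adjusted p = 0.0356). For miR-183-5p it was -0.999 before irradiation (SE 0.32, permutation p = 0.00235, adjusted p = 0.0128) and -0.58 over the later days (SE 0.19, permutation p = 0.00427, adjusted p = 0.0128). On library totals the 4 adjusted p were 0.0941, 0.153, 0.0527 and 0.0527, so no slope passed. The slope of miR-183-5p minus that of miR-182 was -0.30 before irradiation (SE 0.29, adjusted p = 0.359 by permutation) and -0.0046 over the later days (SE 0.25, adjusted p = 0.985 by permutation), so a difference of dose relation between the mates was not shown.

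**Figure D4:**
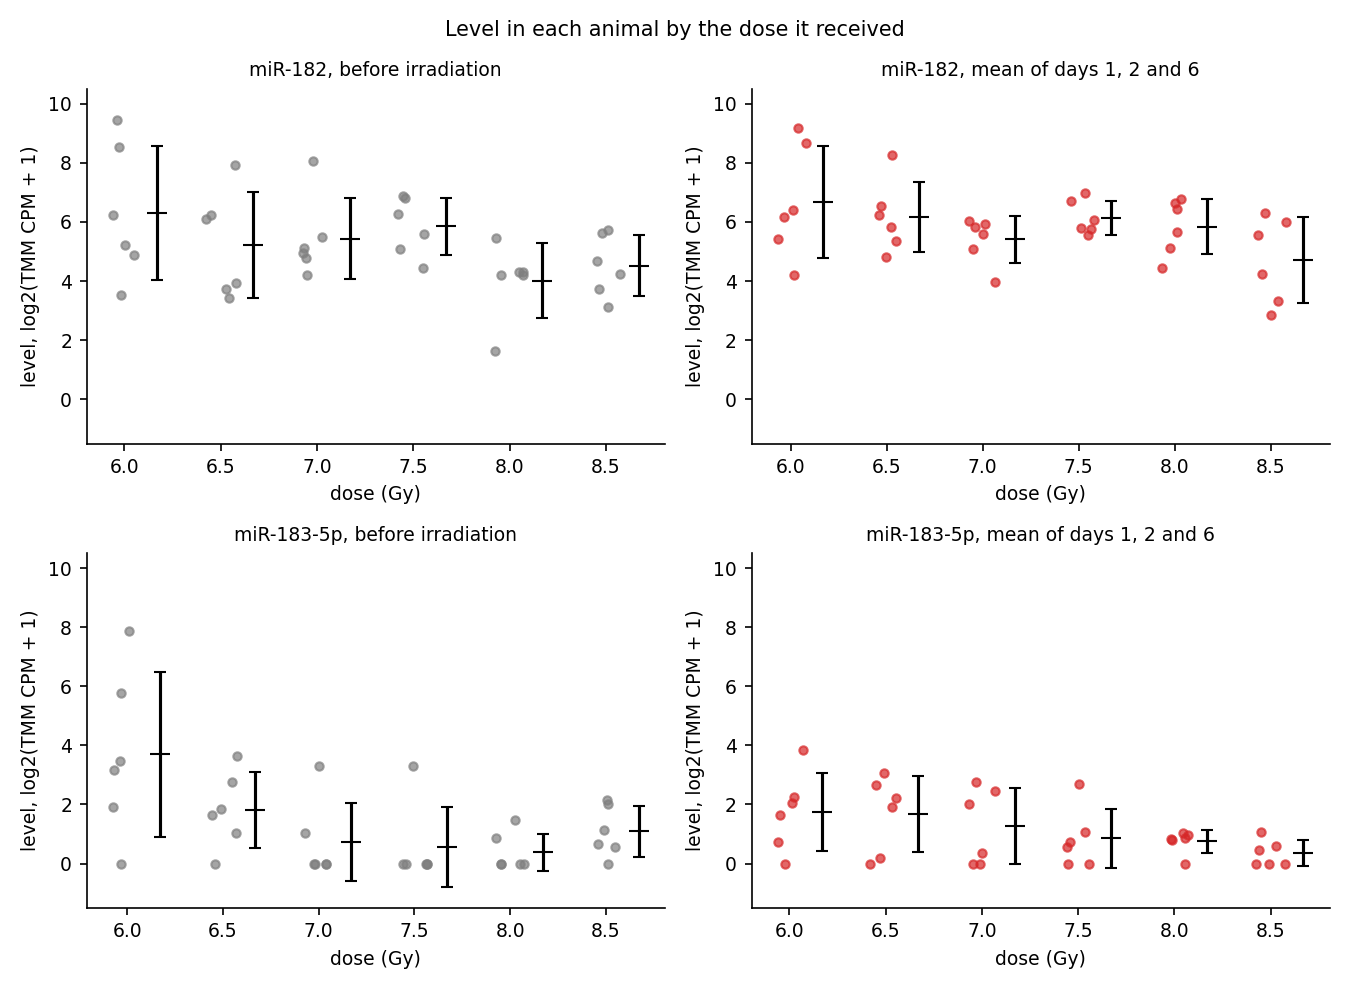
Level, log2(TMM CPM + 1), of miR-182 (top) and miR-183-5p (bottom) by dose in Gy, before irradiation (left) and as the mean of days 1, 2 and 6 (right), with 1 point per animal and the mean ± SD of 6 animals beside it. The 6.0 Gy group has the highest mean in each panel, before irradiation too.

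Detection of miR-183-5p was the same at the extreme doses before irradiation, though at unlike depth, and its later difference was not tested. Before irradiation the 6 libraries held 2067626 counts of all miRNAs at 6.0 Gy and 5315819 at 8.5 Gy. Pooled miR-183-5p then stood at 8.71 RPM at 6.0 Gy and 1.69 RPM at 8.5 Gy, so equal detection did not mean equal amounts. At 6.0 Gy it was read in 5 of 6 libraries before irradiation and in 8 of 18 later, with 18 and 57 counts. At 8.5 Gy it was read in 5 of 6 libraries before irradiation and in 3 of 18 later, with 9 and 8 counts. On day 1 no library at 8.5 Gy held miR-183-5p, which allows up to 1.41 RPM over the group, while miR-182 had 91 counts there. On day 2 no library at 7.5 Gy held it, which allows up to 2.54 RPM, beside 53 counts of miR-182. Pooled over later libraries, the RPM values of miR-183-5p were 4.09, 5.43, 10.2, 1.44, 2.22 and 0.924 over the 6 doses from low to high, and those of miR-182 were 91.4, 164, 42.0, 61.6, 90.1 and 32.5. Single libraries set some of these values. Without the animals RA0456F and RA2021F miR-183-5p at 7.0 Gy stood at 1.29 RPM, and without RA1782F miR-182 at 6.5 Gy stood at 78.0. The day 6 library of RA2685M held 5 of the 8 later counts of miR-183-5p at 8.5 Gy, and without it that group stood at 0.382 RPM.

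The last comparison asked how far the mates agreed across animals. Their levels were related by Pearson's r before irradiation and at days 2 and 6, by rank only once the low-total libraries were left out, and at day 1 by neither. Over 36 animals Pearson's r was 0.64 before irradiation (permutation p = 0.00014, adjusted p = 0.00056). It was 0.14 at day 1 (permutation p = 0.416, adjusted p = 0.416), 0.40 at day 2 (permutation p = 0.0173, adjusted p = 0.0231) and 0.49 at day 6 (permutation p = 0.00228, adjusted p = 0.00456). Spearman's rho was smaller, at 0.39, 0.05, 0.35 and 0.31 at the same 4 times, and none passed (permutation p = 0.0186, 0.762, 0.0364 and 0.0644, adjusted p = 0.0727, 0.762, 0.0727 and 0.0858). Without the 7 low-total libraries rho was 0.44, 0.04, 0.39 and 0.44, and it passed at every time but day 1 (adjusted p = 0.0246, 0.798, 0.0335 and 0.0246, permutation tests). The 2 animals farthest from the median of miR-182 carried part of the value before irradiation. These were RA0724F and RA2445M, at 6.0 Gy, with miR-182 levels of 9.46 and 8.53 and miR-183-5p levels of 5.78 and 7.86. Leaving out the 2 farthest animals at each time gave r = 0.41, 0.17, 0.31 and 0.43.

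The common scaling of each library entered both levels. Spearman's rho of the miR-182 level with the log2 TMM factor was -0.79 before irradiation and -0.72, -0.68 and -0.73 at days 1, 2 and 6, and that of the miR-183-5p level was -0.26, 0.06, -0.14 and -0.16. After removing the linear relation of both to the log2 TMM factor, r between the mates was 0.38, 0.12, 0.34 and 0.31 at the 4 times. After removing the relation to the log2 library total it was 0.65, 0.14, 0.36 and 0.58. On library totals r was 0.41, 0.17, 0.34 and 0.36, and none passed (adjusted p = 0.0544 before irradiation and on days 2 and 6 and 0.316 on day 1, permutation tests). Without the low-total libraries r was 0.66, 0.13, 0.47 and 0.63 with TMM factors. On library totals without them it was 0.41, 0.18, 0.44 and 0.48, and it passed at every time but day 1 (adjusted p = 0.0188, 0.289, 0.0176 and 0.0176, permutation tests). Whether r on day 1 differed from r at the other times was not tested.

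**Figure D5:**
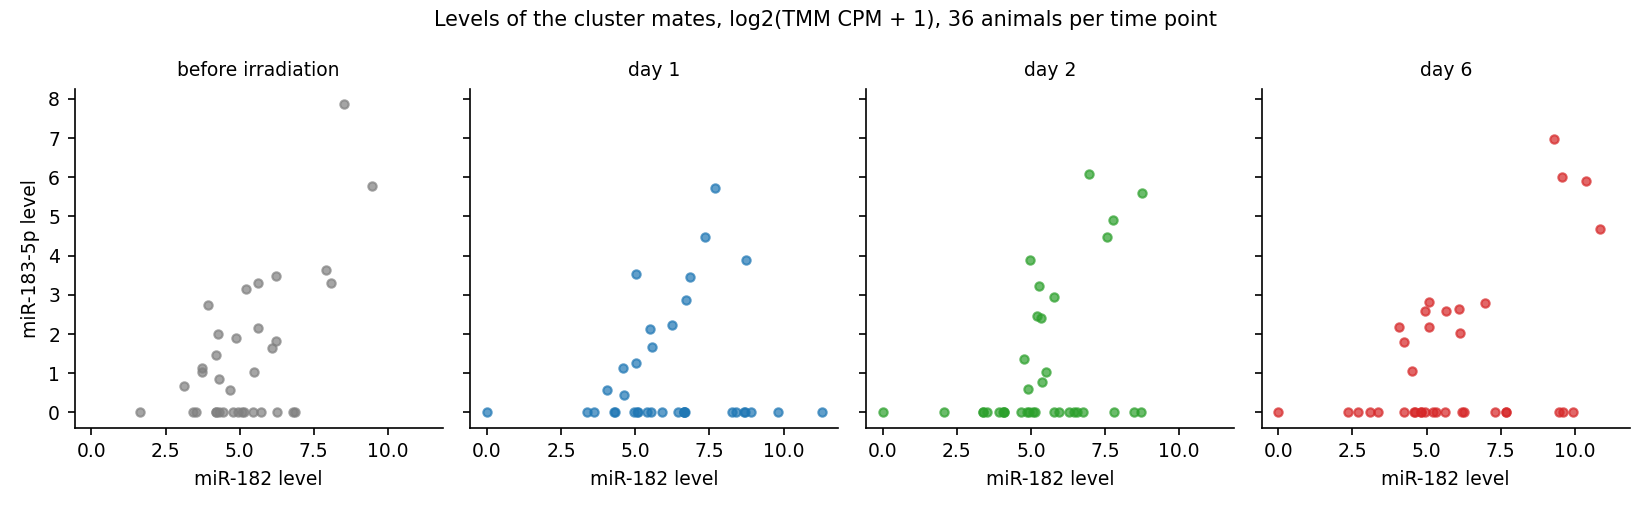
Level of miR-183-5p (vertical) against level of miR-182 (horizontal), both log2(TMM CPM + 1), in 4 panels for the 4 times in order, with 1 point per animal (n = 36 each). Points at 0 on the vertical axis had no miR-183-5p read, and r was 0.64, 0.14, 0.40 and 0.49 over the panels from left to right.

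Across all 144 libraries each mate ran more closely with other miRNAs than with its partner. miR-183-5p was read in only 60 of these libraries, so most of its levels are tied at 0, which limits any rho with it. The miRNAs with the most similar level to miR-182 were miR-92a-3p (Spearman's rho 0.77), miR-92b-3p (0.76), miR-1260b (0.74), let-7b-5p (0.72) and miR-486-5p (0.72), among which miR-92a-3p and miR-486-5p are abundant in red blood cells. Over all 7 miRNAs of the red blood cell list rho with miR-182 lay between -0.28 and 0.77, and for miR-451, a defining marker of these cells, it was -0.0028. miR-183-5p was 25th of 289 (0.26), beside a median of -0.28 over all miRNAs. For miR-183-5p the most similar were miR-636 (0.38), miR-532-3p (0.35), let-7d (0.33), miR-181a-5p (0.33) and miR-324-3p (0.32), and miR-182 was 9th. These points share libraries, depth and the TMM factor, and 4 libraries came from each animal, so the values describe and do not test. After removing the log2 TMM factor, rho between the mates was 0.19, and miR-1260b (0.51) and miR-636 (0.46) led for miR-182. miR-183-5p was then 17th of 289 for miR-182, and miR-182 was 42nd for miR-183-5p. After removing the log2 library total in place of that factor, rho between the mates was 0.31. miR-183-5p was then 21st for miR-182, and miR-182 was 2nd of 289 for miR-183-5p. The 5 miRNAs most like miR-182 had summed slopes per Gy after irradiation of -0.90 (miR-92a-3p), -0.87 (miR-92b-3p), -1.31 (miR-1260b), -1.08 (let-7b-5p) and -0.80 (miR-486-5p). All 5 passed (largest adjusted p = 0.00279, edgeR), beside 11.0% called of all miRNAs. They were chosen for likeness to miR-182 over these same libraries, so their slopes are not separate evidence on it. None of the 5 passed on days 1 or 6 over pre-irradiation, where 6.55% of all miRNAs were called on each day, so a lack of calls among 5 says little.

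Lists of miRNAs typical of possible sources moved only in part with miR-182. Of 9 miRNAs known from epithelial and neuroendocrine cells, where the miR-183 cluster is also found, 6 were tested, and 4 rose on day 1, when 6.55% of all miRNAs were called. These were miR-375, known from pancreatic islets (4.11, SE 0.38), miR-141-3p (2.20, SE 0.31), miR-200a-3p (1.38, SE 0.39) and miR-429-3p (1.14, SE 0.33) as log2 fold changes by edgeR, with a list median of 1.26 beside 0.02 over all miRNAs. The other members tested, miR-203 and miR-205, had values of -0.54 (SE 0.34) and -0.10 (SE 0.30) and did not pass. Of this list only miR-375 rose on day 2 (1.62, SE 0.35) and on day 6 (1.16, SE 0.35). Across libraries rho of the miR-182 level with these 6 miRNAs lay between -0.33 and 0.02. None of the 7 red blood cell miRNAs passed on any day, with list medians of 0.35, 0.27 and 0.37 on days 1, 2 and 6. Of all miRNAs 6.55%, 0.69% and 6.55% were called on these days, so a lack of calls among 7 says little. In the summed slope with dose after irradiation 2 of these 7 fell, miR-486-5p and miR-92a-3p, and 0 rose, beside 11.0% called of all miRNAs. Of the other 5, none passed in that fit. miR-144, made from the same precursor RNA as miR-451, had a slope of 0.27 per Gy (adjusted p = 0.166, edgeR). The rest were negative, at -0.99 for miR-185-5p, -0.48 for miR-363-3p, -0.12 for miR-451 and -0.11 for miR-16-5p (smallest adjusted p = 0.0678, edgeR). By the slope on day 6 alone, the only call of this list was miR-363-3p (-0.68 per Gy, adjusted p = 0.0172, edgeR), beside 8.28% called of all miRNAs. Of 4 lymphocyte miRNAs, miR-150-5p fell on day 2 (-1.23) and miR-342-3p on day 6 (-0.92), beside 0.69% and 6.55% called of all miRNAs. This list lay between -1.23 and -0.13 on day 2 and between -0.92 and 0.16 on day 6. Of 4 myeloid and platelet miRNAs, miR-142-5p (-0.65) and miR-142-3p (-0.91) fell on day 6, and the list lay between -0.91 and -0.03. The part of any of these sources in the values of the pair was not tested.

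Sex and outcome were compared on the sums of the 4 libraries of each animal, and neither miRNA passed. Males had 19.7, 55.8 and 95.9 RPM of miR-182 at the lowest, median and highest animal, and females 24.3, 76.2 and 327. For miR-183-5p males had 0, 1.66 and 13.6 RPM and females 0, 4.80 and 14.6. The medians were lower in males, and the ranges overlapped. Male over female the log2 fold change was -1.67 for miR-182 (SE 0.54, adjusted p = 0.150) and -1.69 for miR-183-5p (SE 0.70, adjusted p = 0.217) by edgeR, in a test that called 0.345% of all miRNAs. Sex was not balanced over dose, and with dose as a covariate the sizes were smaller, -0.78 and -0.76. Deceased animals had 19.7, 55.8 and 327 RPM of miR-182 at the lowest, median and highest, and surviving animals 24.3, 59.7 and 125. For miR-183-5p deceased animals had 0, 2.03 and 10.7 RPM and surviving animals 0, 1.84 and 14.6. The ranges overlapped in both. Deceased over survived the log2 fold change was 1.28 for miR-182 (SE 0.59, adjusted p = 0.846) and 0.11 for miR-183-5p (SE 0.72, adjusted p = 0.980) by edgeR, which called 0.0% of all miRNAs, with 13 at an unadjusted p under 0.05. For miR-182 the log2 fold change was 1.24 with dose as a covariate, and only 0.25 on library totals. The mean miR-182 levels were nearly equal, at 5.68 in deceased and 5.67 in surviving animals.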

How the data were processed

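Serum small RNA was ligated to adapters with a TruSeq kit, sequenced and demultiplexed with bcl2fastq by the authors, who trimmed the reads and counted mature miRNAs against miRBase in Genomics Workbench. The macaque genome build is not given in the sources used here. The deposited table holds raw counts per miRNA and library, not normalized, with no molecular identifiers. From these counts edgeR 4.0.16 in R 4.3.3 (TMM factors, miRNAs with a read in at least 40% of libraries, quasi-likelihood F tests, Benjamini-Hochberg adjustment over 290 miRNAs, threshold 0.05) gave contrasts of each day over pre-irradiation and slopes per Gy. Sums per animal were used for dose after irradiation, sex and survival. Libraries of different animals were replicates, and the main time contrasts held no term for the animal, as the study's methods state no pairing. Because the same animals were sampled at each time, the animal number pairs the libraries (mean correlation of residuals 0.0787 over 216 pairs from the same animal, 0.00448 over other pairs). Animal-level tests used 100000 sign flips or permutations of log2(TMM CPM + 1), two-sided. Both miRNAs varied more between libraries than most, with a biological coefficient of variation of 1.20 (miR-182) and 1.93 (miR-183-5p) against a median of 0.712. The 5 miRNAs most like each were named by Spearman's rho. The fits were run on simulated data with a common spread for all miRNAs, smaller than that of the pair, so that run does not vouch for their calls. Alternatives were RLE factors, no filter, DESeq2 1.42.0, an animal block, a pseudocount of 10, leaving out low-total libraries and leaving out each animal. The members, the lists and the tests were chosen with earlier results of these data known. No sequences are shown.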

Additional observations from a re-analysis of the deposited data

Results flagged for a closer look

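Within the 24 groups of 6 animals at a single dose, before irradiation or as the mean of the later days, an extreme animal stood apart from the other 5 in 5 groups. Chance would give about 1 in 20 in values without ties, and many miR-183-5p levels are tied at 0, so this rate does not apply to that miRNA. Before irradiation at 7.0 Gy, RA2257F had the highest level of both mates, 8.07 for miR-182 with the next animal at 5.49, and 3.31 for miR-183-5p with the next at 1.04. At 8.0 Gy before irradiation RA2694M had the lowest miR-182 level, 1.63, with the next at 4.20, from 1 count in a library of 199351. At 7.5 Gy before irradiation RA2592M was the only animal with miR-183-5p, at a level of 3.31 from 8 counts, with 0 in the other 5. At 8.0 Gy over the later days RA2598M was the only animal without miR-183-5p, at 0, with the next at 0.81.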

How the results depend on the processing

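Over all alternatives without leaving out single animals, 189 values kept their direction and call, 18 lost the call, 4 gained it and 7 turned in direction. The library total as size factor, dropping the 2 identical libraries, and leave-one-out for the summed slope and the change of slope were chosen after seeing the data. For miR-182 on day 1 the call was lost with RLE factors (1.35), DESeq2 (1.25), no filter (1.27) and without low-total libraries (1.24), and kept on library totals (1.03). For miR-182 on day 6 it was lost in the paired fit with the replicate block by animal (1.07) and on library totals (0.67); the block turned miR-183-5p on day 2 (-0.19), changed no other call of the pair, and gave 4 calls over all miRNAs on day 6, against 19. On library totals miR-183-5p turned on day 6 (-0.048) and for deceased over survived (-0.46), the summed slopes were -0.42 and -0.81, the animal-level slopes -0.37 and -0.29 for miR-182 and -0.70 and -0.43 for miR-183-5p, and r 0.41, 0.34 and 0.36, all without a call. The day 6 slope of miR-182 passed without the filter (-1.03) and without low-total libraries (-1.20), and that of miR-183-5p was lost with RLE (-1.52), DESeq2 (-1.06) and library totals (-0.72). With a pseudocount of 10 the day 1 difference between the mates passed (-1.01), as it did without low-total libraries (-1.54), and miR-183-5p on day 6 (0.018) and the differences of slope (0.12 and 0.23) turned, the later one also without the identical libraries (0.014). The cause of these shifts was not tested.

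With each animal left out, miR-182 lay between 1.02 and 1.67 on day 1, -0.040 and 0.31 on day 2 and 1.18 and 1.86 on day 6, and miR-183-5p between -0.94 and -0.31, 0.02 and 1.04, and 0.70 and 1.35. The slopes per Gy at the 4 times in order lay between -1.27 and -0.71, -1.32 and -0.52, -0.97 and -0.75, and -1.30 and -0.77 for miR-182, which passed on day 6 in 19 of 36 fits. For miR-183-5p they lay between -1.64 and -1.002, -1.39 and -0.75, -1.40 and -0.98, and -2.25 and -1.44. The summed slopes lay between -1.55 and -1.05 and between -1.76 and -1.37, and the changes of slope between -0.11 and 0.34 and between -0.26 and 0.30.

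Counts of calls over all miRNAs moved by over 1.5 times. Without the filter they were 51 on day 6 against 19, 17 on day 2 against 2, and for dose 4 before irradiation against 0, 8 on day 1 against 2, 6 on day 2 against 1, 54 on day 6 against 24, 54 summed against 32 and 1 for the change of slope against 0. On library totals they were 6 on day 1, 5 on day 6, and for dose 7 on day 1 and 0 on days 2 and 6 and summed. Without low-total libraries 12 were called on day 1 and 2 for dose on day 2. DESeq2 called 1 on day 2, and for dose 10 on day 1, 0 on day 2 and 3 on day 6; RLE called 1, and for dose 4 on day 1 and 2 on day 6. The 1 call for sex was lost with RLE, library totals or dose as covariate. With each animal left out, the counts lay between 8 and 20 on day 1, 1 and 4 on day 2 and 11 and 27 on day 6, and for dose between 0 and 9 on day 1, 0 and 1 on day 2, 1 and 36 on day 6 and 7 and 37 summed, with 0 throughout before irradiation and for the change of slope. The lowest were without RA2596M, RA2742F or RA2743F on day 1 and RA1782F on day 6. On day 2 they were without any of several animals. For dose they were without RA2742F on day 1, RA1782F or RA2743F on day 2 and RA0724F on day 6 and summed. The highest for dose on day 1 was without RA0529F. At 3 counts, the limit was 8.71 CPM in the median library.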
